A study of Mus musculus with 48 samples.

Results

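The genes described here encode the inhibin and activin subunits, anti-Müllerian hormone and their receptors. They are *Inha*, *Inhba*, *Inhbb*, *Amh*, *Amhr2*, *Acvr1b*, *Acvr2a* and *Acvr2b*, 8 of the 33764 genes in the tables used. Their rows were taken by gene symbol in the bulk tables and by Ensembl identifier in the single-cell table, with no limit on their values. Earlier results of these data were known when the genes were chosen. All 8 were present in each of the 3 tables.

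Bulk RNA-seq of C57BL/6 mice covered gonadal somatic cells (GSCs) from female gonads at E12.5, E13.5 and E16.5 and somatic cells of the ovary 6 weeks after birth (P6w), with 2 libraries per stage, deposited as counts. A second table of FPKM values held female embryonic stem cells (ESCs) grown towards gonadal somatic cell-like cells (GSCLCs) in V580, which is vitamin C (Vc) plus AM580, an agonist of the retinoic acid receptor. V580 cultures were taken on days 4, 6, 8 and 10 (V580_D4 to V580_D10, 3 libraries each) and compared with 3 libraries of E12.5 female gonadal cells (E12.5_GC). Cultures without compound (Con) and with Vc, AM580 or V580 were taken at 24 h and 48 h (2 libraries each), and the 10x data held 1 sample of V580 day 6. By the study's methods, E12.5 GSCs were the fraction left after magnetic sorting had removed SSEA1+ cells, a marker of germ cells and pluripotent cells, so that they held several somatic cell types. Whether the sequenced cultures were sorted is not given in the sources used here, and 5 pluripotency markers summed to 3081 to 3694 FPKM in the 24 h libraries, 190.5 to 216.5 on day 4, at most 11.9 on later days and 2.82 to 8.90 in E12.5_GC. The ESCs had been kept on feeder layers of mouse embryonic fibroblasts, and the feeders were depleted by adherence before induction. Nothing in the labels says that the libraries of a group came from separate animals or cultures, so the p values measure the spread between these libraries, which may be technical.

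Inhibins and activins are dimers of the same family of ligand chains. A beta chain (from *Inhba* or *Inhbb*) joined to another beta chain gives an activin, and joined to the alpha chain (from *Inha*) gives an inhibin, which opposes activin and restrains follicle-stimulating hormone release from the pituitary. Activin binds a type II receptor (*Acvr2a* or *Acvr2b*) that acts with a type I receptor (*Acvr1b*) on Smad proteins, whereas anti-Müllerian hormone (*Amh*) signals through its own type II receptor (*Amhr2*). In the fetus *Amh* is known as a product of Sertoli cells of the testis, and after birth *Amh*, *Inha* and the beta chains are products of granulosa cells of growing follicles.

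Several properties of the libraries touch on these genes. The stage libraries held 12694769 to 22259044 counts over 22173 genes, and the depth recovered for the FPKM libraries was 16435261 to 28320667 reads. Although labelled as female, both E12.5 libraries of the stage table held transcripts of 4 Y-linked genes, at a summed 8.40 to 9.50 CPM (counts scaled to the size of the library), against 0.228 to 0.254 at E13.5 and at most 0.0817 at E16.5 and P6w. Sertoli cell markers (12 genes) reached a sum of 199.0 to 199.5 CPM in the E12.5 libraries, 83.9 to 87.3 in those of E13.5, 204 to 214 at E16.5 and 273 to 286 at P6w, where *Mro* alone had a mean of 222 CPM and 9 of the 12 markers were called lower than in the E12.5 libraries. Markers of fetal pre-granulosa cells (7 genes) were present at every stage, at 1942 to 1981, 2441 to 2519, 1342 to 1600 and 377 to 385 CPM, and those of adult granulosa cells (10 genes) rose from 56.0 to 65.3 CPM at E12.5 to 3423 to 3519 at P6w. The E16.5 replicates stood further apart than those of the other stages (chi-square per degree of freedom of 37.9, against 6.02 to 6.93), and they were sequenced on different lanes. Both E12.5 and both E13.5 libraries shared lane 5 with the first E16.5 library, and both P6w libraries shared lane 1 with the second, so that lane and stage cannot be told apart between P6w and E12.5 or E13.5.

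In GRCm38, the build that the study calls mm10, and by the GENCODE vM21 annotation, *Inha* lies on chromosome 1 (75507077 to 75510366, plus strand) and *Inhbb* on the same chromosome (119415465 to 119422248, minus strand), both with 2 exon blocks. *Inhba* has 5 exon blocks on chromosome 13 (16011851 to 16031621, plus strand) and *Amh* 5 on chromosome 10 (80805243 to 80807648, plus strand). The receptors *Amhr2* (102445367 to 102454633, 11 exon blocks) and *Acvr1b* (101174067 to 101213684, 9 exon blocks) both lie on the plus strand of chromosome 15. *Acvr2a* is on chromosome 2 (48814109 to 48903269, plus strand, 11 exon blocks) and *Acvr2b* on chromosome 9 (119402118 to 119434995, plus strand, 9 exon blocks). Of the exon bases of *Acvr2a*, 446 overlap *Orc4* on the opposite strand. The strand used in counting was not stated, so reads there cannot be assigned to either gene.

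The 250 bases before the transcript start in the RefSeq promoter table (GRCm38.p6) are shown for *Inhba* and *Inhbb*, the beta subunits, which were highest at P6w, and for *Amhr2*, which was not. For these 3 genes that start is also the outer end of the gene span given above. For *Inha* the table uses a later start, its window lies inside the gene span, and it is not shown. Letters are lower case, 5′ to 3′ on the strand of the gene, and capitals mark a match to CAAGGTCA, the motif of the NR5A factors. *Inhba* is shown for chr13:16011601-16011850 (plus strand), *Inhbb* for chr1:119422249-119422498 (minus strand) and *Amhr2* for chr15:102445117-102445366 (plus strand).
Inhba: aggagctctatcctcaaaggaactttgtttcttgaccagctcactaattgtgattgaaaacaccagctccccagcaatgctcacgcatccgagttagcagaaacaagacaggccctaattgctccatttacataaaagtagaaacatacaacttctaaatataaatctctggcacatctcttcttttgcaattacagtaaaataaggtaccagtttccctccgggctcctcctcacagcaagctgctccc
Inhbb: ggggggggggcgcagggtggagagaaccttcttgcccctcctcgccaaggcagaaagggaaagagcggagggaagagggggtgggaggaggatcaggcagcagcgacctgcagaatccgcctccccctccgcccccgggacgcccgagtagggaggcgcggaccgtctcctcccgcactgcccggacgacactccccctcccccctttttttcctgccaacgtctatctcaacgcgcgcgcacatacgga
Amhr2: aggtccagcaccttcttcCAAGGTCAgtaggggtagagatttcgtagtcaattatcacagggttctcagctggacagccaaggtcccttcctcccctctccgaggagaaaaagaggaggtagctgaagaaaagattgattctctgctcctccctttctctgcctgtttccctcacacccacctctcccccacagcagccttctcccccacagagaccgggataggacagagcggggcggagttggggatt

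The GC content of these windows was 43.2% for *Inhba*, 68.0% for *Inhbb* and 55.2% for *Amhr2*. Exact matches to 5 motifs were searched on both strands: CAAGGTCA (NR5A), TGACGTCA and TGCGTCA (cAMP response element and a variant), AGATAA (named for the GATA factors) and TGTTTAC (forkhead). No motif is contained in another. Of the 7 genes with a RefSeq entry, *Inha* included with its window inside the gene, *Amhr2* alone held a match, to the NR5A motif on the plus strand, at position -232 from that start (102445135 to 102445142 on chromosome 15). Over 32851 windows of the same length, the motifs occurred in 1.33%, 1.55%, 1.75%, 9.99% and 3.17% respectively. A match describes letters only, and the absence of one says nothing of the factors that act there. *Amh* had no entry.

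The first comparison followed the 8 genes over GSC development. At P6w the 3 subunit genes were all higher than at E12.5, *Inhba* by far the most, while the receptors were level or lower. Before birth the subunit genes did not move together, and *Inhbb* fell. *Amh* was lower at E13.5 than in the E12.5 libraries of this table, which held Y-linked transcripts, and was again detected at higher levels at P6w. At edgeR's adjusted p below 0.05, 4 of the 8 genes were higher and 2 lower at P6w than at E12.5, where 52.9% of all 16398 genes tested were called (25.4% higher and 27.5% lower). The median log2 fold change of the 8 genes was 1.68, against -0.04 over all genes tested.

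**Figure D1:**
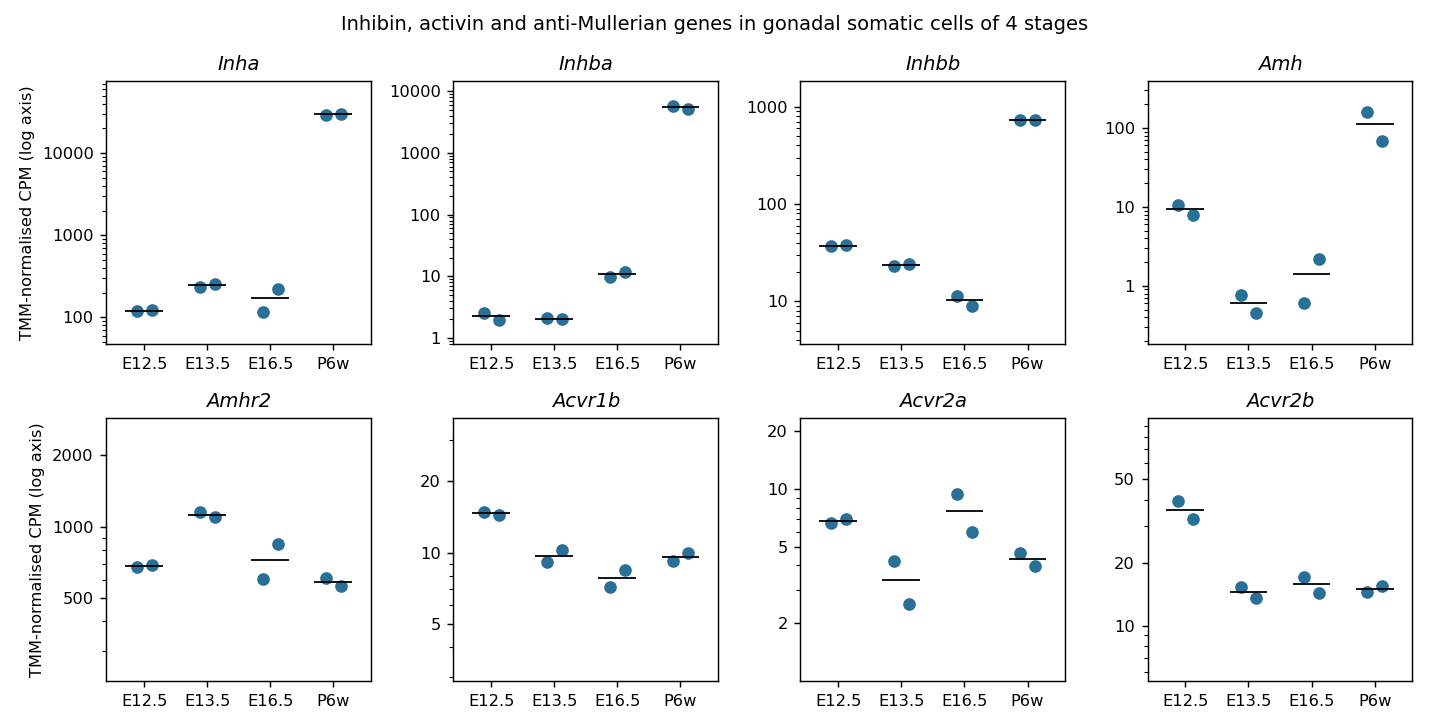
TMM-normalised CPM (log axes, each panel with its own scale) of the 8 genes in GSCs of 4 stages. Each point is 1 library and each line the mean of the 2 libraries. *Inha*, *Inhba*, *Inhbb* and *Amh* were highest in both P6w libraries, and *Amhr2* lay between 562 and 1152 CPM in all 8 libraries.

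*Inha*, the alpha subunit of inhibin, stood at 118.4 and 122.4 CPM in the E12.5 libraries (2555 and 2477 counts), 238 and 254 at E13.5, 118.2 and 223 in the E16.5 libraries and 29423 and 30235 at P6w (360149 and 363261 counts). The P6w libraries lay far above the embryonic ones, and the E16.5 replicates differed 1.89-fold and spanned the E12.5 values. The rise to P6w was 248-fold (log2 fold change 7.95, SE 0.272, edgeR adjusted p = 4.88e-12). At E16.5 the log2 difference from E12.5 was 0.50 (95% interval 0.07 to 0.94, adjusted p = 0.065), and without the first E16.5 library it was 0.89 and called. Between E12.5 and E13.5 *Inha* rose 2.05-fold (log2 1.03, SE 0.205, adjusted p = 0.00084), which fell to a log2 of 0.39 (adjusted p = 0.108) with a term for gene length in each library. Across genes, which are not independent replicates, the changes between E12.5 and E13.5 ran with exon length (Spearman rho -0.494), and *Inha* has 1475 exon bases.

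*Inhba*, the beta A subunit, was near the lower end of detection in the early gonad, with 54 and 40 counts at E12.5 (2.501 and 1.98 CPM) and 41 and 35 at E13.5 (2.08 and 2.00 CPM). It reached 9.87 and 11.9 CPM at E16.5 and 5842 and 5233 CPM at P6w (71514 and 62872 counts). The interstitial markers (6 genes) also rose to E16.5, from 739 to 799.7 CPM in the E12.5 libraries to 2572 to 2866, and were lowest at P6w (315 to 349), and their part in the level of *Inhba* was not tested. The stages after E13.5 did not overlap with each other or with the earlier libraries. *Inhba* rose 4.81-fold from E12.5 to E16.5 (log2 2.27, SE 0.178, edgeR adjusted p = 1.9e-07) and 2460-fold from E12.5 to P6w (log2 11.26, SE 0.202, adjusted p = 1.64e-14). Between E12.5 and E13.5 the log2 difference was -0.14 (95% interval -0.61 to 0.33).

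*Inhbb*, the beta B subunit, took a different path before birth. It was at 37.2 and 37.8 CPM at E12.5, 23.0 and 24.2 at E13.5, 11.5 and 9.06 in the E16.5 libraries and 729.9 and 736 at P6w. Each embryonic stage lay below the one before without overlap. The fall was 1.59-fold to E13.5 (log2 -0.67, SE 0.128, edgeR adjusted p = 0.00064) and 3.62-fold to E16.5 (log2 -1.86, SE 0.136, adjusted p = 9.33e-08), and the rise to P6w was 19.6-fold (log2 4.29, SE 0.136, adjusted p = 2.23e-12).

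Per kilobase of exon, the 2 beta subunits changed places. *Inhbb* was 22.3 and 28.7 times the level of *Inhba* at E12.5, 16.6 and 18.2 times at E13.5 and 1.75 and 1.15 times at E16.5, whereas at P6w *Inhba* was 5.33 and 4.74 times the level of *Inhbb*. *Inha* exceeded the sum of the beta subunits per kilobase in every library, by 8.796 and 9.03 times at E12.5, 28.2 and 28.7 at E13.5, 18.9 and 37.95 in the E16.5 libraries and 18.4 and 20.7 at P6w. At P6w *Inha* stood at 19948 and 20498 CPM per kilobase. In bulk samples, fewer cells of a type and less RNA per cell cannot be told apart, and the part of the adult granulosa markers in the P6w levels was not tested. All 10 of those markers were higher at P6w than at E12.5 (median log2 fold change 8.69), with *Cyp11a1*, the side-chain cleavage enzyme of steroid synthesis, at a mean of 1250 CPM.

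Within a lane *Inhba* and *Inhbb* kept their direction where it could be read, and *Inha* kept its rise to P6w but not its difference at E16.5. Against the second E16.5 library alone, which shared their lane, the P6w libraries were higher by a log2 of 7.06 for *Inha*, 8.86 for *Inhba* and 6.34 for *Inhbb*. Against the E12.5 libraries on its own lane, the first E16.5 library was higher in *Inhba* by a log2 of 2.13 and lower in *Inhbb* (log2 -1.71). *Inha* differed there by -0.03, against 0.50 with all libraries. In these fits the lone library was assumed to vary like the other groups.

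*Amh*, the hormone that makes the Müllerian ducts regress, had 231 and 159 counts at E12.5 (10.7 and 7.86 CPM), 15 and 8 at E13.5 (0.762 and 0.456 CPM), 14 and 36 in the E16.5 libraries (0.606 and 2.20 CPM) and 1923 and 817 at P6w (157 and 68.0 CPM). The E12.5 libraries lay above all E13.5 and E16.5 libraries and below both P6w libraries. Its replicates differed 3.64-fold at E16.5 and 2.31-fold at P6w, more than those of the other 7 genes at these stages. *Amh* fell 14.9-fold from E12.5 to E13.5 (log2 -3.90, SE 0.538, edgeR adjusted p = 5.03e-05), stood 7.09-fold below E12.5 at E16.5 (adjusted p = 0.000275) and was 12.1-fold above it at P6w (log2 3.598, SE 0.367, adjusted p = 8.86e-07). These calls of *Amh* held in every left-out fit, but their size rested on single libraries. The log2 difference of E16.5 from E12.5, -2.83 with all libraries, was -2.08 without the first E16.5 library and -3.93 without the second, and that of P6w was 2.86 without the first P6w library and 4.08 without the second. The Y-linked sum fell over the same step, from 8.40 to 9.50 CPM to 0.228 to 0.254, and so did the Sertoli cell sum, from 199.0 to 199.5 to 83.9 to 87.3, with 9 of its 12 markers called lower at E13.5 and 1 higher. The part of testis cells in the E12.5 level of *Amh* was not tested. The E12.5_GC libraries, which were processed separately, held *Amh* at 0.409, 0.842 and 0.887 FPKM. These E12.5 libraries held it at 6.41 and 4.70 CPM per kilobase, and the cause of that difference was not tested. At E16.5 the Sertoli cell sum was back at 204 to 214 CPM through *Sox9*, at a mean of 127, while 9 of the 12 markers were still called lower than at E12.5 and *Amh* was at most 2.20 CPM.

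*Amhr2*, the receptor of this hormone, was abundant throughout, at 680.5 and 690.5 CPM at E12.5, 1152 and 1101 at E13.5, 605 and 846 in the E16.5 libraries and 609 and 562 at P6w. Both E13.5 libraries stood above all others. Per kilobase, *Amhr2* (280 to 574 CPM per kilobase) was the highest of the 8 genes in every embryonic library, and at P6w *Inha* and *Inhba* exceeded it. The rise to E13.5 was 1.64-fold (log2 0.72, SE 0.141, edgeR adjusted p = 0.0008), but its log2 was 0.23 (adjusted p = 0.176) with the length term. Relative to E12.5 the log2 difference was 0.08 at E16.5 (95% interval -0.22 to 0.38) and -0.23 at P6w (-0.53 to 0.07). Compared with E13.5, P6w was 1.92-fold lower (log2 -0.94, adjusted p = 4.04e-05).

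The activin receptors were far lower. *Acvr2b*, a type II receptor, was at 39.4 and 32.4 CPM at E12.5 and between 13.6 and 17.2 CPM in the 6 later libraries, with no overlap. The Y-linked sum was likewise highest in the E12.5 libraries, and the part of testis cells in their level of *Acvr2b* was not tested. *Acvr2b* was 2.48-fold lower at E13.5 (log2 -1.31, SE 0.175, edgeR adjusted p = 3.81e-05), 2.27-fold lower at E16.5 (adjusted p = 8.94e-05) and 2.39-fold lower at P6w (adjusted p = 2.88e-05). *Acvr1b*, the type I receptor, went from 14.9 and 14.5 CPM at E12.5 down to 9.14 and 10.3 at E13.5, 7.19 and 8.45 in the E16.5 libraries and 9.23 and 9.99 at P6w. These falls were 1.51-fold, 1.88-fold and 1.53-fold (adjusted p = 0.0212, 0.00218 and 0.0187). The calls at E13.5 and P6w were lost whichever library of those stages or of E12.5 was left out (adjusted p = 0.0542 to 0.132), and that at P6w also in DESeq2 (0.0569).

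*Acvr2a*, the other type II receptor, had 143 and 141 counts at E12.5 (6.62 and 6.97 CPM), 83 and 44 at E13.5 (4.22 and 2.51 CPM), 217 and 98 in the E16.5 libraries (9.39 and 6.00 CPM) and 57 and 48 at P6w (4.66 and 3.995 CPM). The E16.5 replicates spanned the E12.5 values. It was 2.01-fold lower at E13.5 than at E12.5 (log2 -1.01, SE 0.304, edgeR adjusted p = 0.0137), but without the second E13.5 library the log2 was -0.67 (adjusted p = 0.141) and without the second E12.5 library the adjusted p was 0.0612. At P6w its log2 difference from E12.5 was -0.65 (95% interval -1.31 to 0.01), and at E16.5 it was 0.19 (adjusted p = 0.64).

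Over the remaining contrasts of the stages, 7 of the 8 genes were called between E12.5 and E13.5 (2 higher and 5 lower, against 45.9% of all genes, 23.8% higher and 22.1% lower), and 5 between E12.5 and E16.5 (1 higher and 4 lower, against 37.6%, 20.5% higher and 17.1% lower). The median log2 fold changes were -0.63 and -0.42, against 0.03 and -0.01 over all genes. The 2 genes called higher at E13.5 were *Inha* and *Amhr2*, and both of these calls were lost with the length term. From E13.5 to E16.5, 2 were higher and 3 lower (54.1% of all genes called, 28.7% higher and 25.4% lower), *Inhba* 5.29-fold higher (edgeR adjusted p = 1.66e-07), *Acvr2a* 2.29-fold higher (adjusted p = 0.00382), *Inhbb* 2.28-fold lower (adjusted p = 5.44e-06), *Amhr2* 1.55-fold lower (adjusted p = 0.00148) and *Inha* 1.44-fold lower (adjusted p = 0.038). The call of *Acvr2a* was lost without the second E13.5 library (adjusted p = 0.0518). That of *Amhr2* was lost with the length term (log2 -0.25, adjusted p = 0.106). That of *Inha* was lost with it too (log2 -0.03, adjusted p = 0.913), without either E13.5 library or without the first E16.5 library (log2 -0.14), and in DESeq2 (adjusted p = 0.176). Against P6w, 4 genes were higher and 1 lower both from E13.5 (59.7% of all genes called, 28.7% higher and 31% lower) and from E16.5 (56.1%, 26.3% higher and 29.8% lower). *Amh* was 180-fold and 85.9-fold higher at P6w than at those stages, *Inhba* 2700-fold and 512-fold, *Inha* 121-fold and 175-fold and *Inhbb* 31-fold and 70.9-fold. For *Amh* the log2 difference of P6w from E16.5 (6.42) was 5.67 without the first library of either stage and 7.52 without the second E16.5 library, and that from E13.5 (7.50) was 6.75 without the first P6w library and 7.98 without the second. *Acvr2a* was 1.79-fold lower at P6w than at E16.5 (adjusted p = 0.0302), and that call was lost without either P6w library or without the first E16.5 library (adjusted p = 0.079 to 0.258), and in DESeq2 (0.069).

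The list of 45 further pathway genes held related ligands, receptors and coreceptors, binding proteins and inhibitors, Smads with their partners, and processing enzymes. Of these, 39 were tested in the stages. Relative to E12.5, edgeR called 4 higher and 16 lower at E13.5, 11 higher and 5 lower at E16.5, and 12 higher and 11 lower at P6w, that is 20, 16 and 23 of 39, where 45.9%, 37.6% and 52.9% of all genes tested were called. At E13.5 the lower genes were mostly receptors or coreceptors (6 of 10, with 0 higher) and intracellular components (9 of 15, with 1 higher). *Acvr1c*, a type I receptor of nodal and related ligands, fell 8.43-fold there (log2 -3.08, adjusted p = 1.7e-05), while the ligand *Gdf3* rose by a log2 of 2.72 (adjusted p = 0.00358) and *Foxh1*, a partner of activated Smads, by 2.46 (adjusted p = 0.000629). Germ cell markers (5 genes) rose over the same step from 6.81 to 6.92 CPM to 22.4 to 24.2, with 4 of 5 called higher, and pluripotency markers (5 genes) from 5.83 to 7.504 CPM to 24.8 to 30.3. Their part in *Gdf3* and *Foxh1* was not tested. From E13.5 to E16.5 the balance was the other way, with 23 higher and 3 lower (54.1% of all genes called), among them 8 of 10 receptors or coreceptors higher and *Skil*, a repressor of Smad activity, with a log2 of 2.62. The trend of all genes with exon length turned as well (Spearman rho -0.494 for the step to E13.5 and 0.335 for that from E13.5 to E16.5, across genes), and its part in these counts was not tested.

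At E16.5, *Bambi*, a pseudoreceptor that blocks signalling of this family, was at 68.7 and 152 CPM against 15.8 and 16.4 at E12.5 (log2 2.77, edgeR adjusted p = 6.23e-06). *Gdf3* was also called higher (log2 2.01, adjusted p = 0.0272), but its E16.5 replicates stood at 3.72 and 0.612 CPM and without the first the log2 was 0.15. *Nog*, a secreted antagonist of bone morphogenetic proteins, rose by a log2 of 1.62 (adjusted p = 0.0318), a call lost in DESeq2 (adjusted p = 0.0837) and without the first E12.5 library or either E16.5 library. At P6w, *Bmp15*, a ligand made by oocytes, had 59 and 20 counts against 0 in all E12.5 and E13.5 libraries, at least 22.6-fold higher than at E12.5 with a floor of 3 counts per library. *Bmpr1b*, a type I receptor for bone morphogenetic proteins, rose 18.8-fold to 75.8 and 79.5 CPM (adjusted p = 2.13e-09), and the coreceptor *Tdgf1* from 0.602 and 0.296 to 16.503 and 18.1 CPM (adjusted p = 3.88e-06). By role, the P6w counts were 5 higher and 2 lower of 10 receptors or coreceptors, and 2 higher and 5 lower of 15 intracellular components.

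Genes with the stage pattern most like each of the 8 were taken by Pearson correlation of log2 CPM over the 8 libraries. The values are a description, since the libraries of a stage share their source. For *Inhba* the highest was *Nr5a2* (r = 0.9992), a nuclear receptor of granulosa cells with mean levels of 0.522, 0.482, 2.89 and 335 CPM from E12.5 to P6w, followed by *Rasl10a* (0.9987) and *St3gal4* (0.9986). *Inha* was nearest to *COX1*, *Rpn1* and *Scap* (0.9983, 0.9978 and 0.9978), *Inhbb* to *Tes*, *Obsl1* and *Fam98a* (0.9972, 0.9951 and 0.9942) and *Amh* to *Txndc11* (0.9892). For *Amhr2* they were *Zmat2*, *Aldoc* and *Mrps11* (0.9942, 0.991 and 0.9901). *Acvr2b* was nearest to *Foxc1* (0.9931), *Rpgrip1l* (0.9843) and the Y-linked *Kdm5d* (0.9826), *Acvr1b* to *Zfp566*, *Coro1c* and *Ushbp1* (0.9891, 0.9792 and 0.971), and *Acvr2a* to *Mrc1*, *Olfr57* and *Eif2ak2* (0.9894, 0.9871 and 0.9713).

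The second comparison set V580 cultures against E12.5_GC, the cells that the induction aims at. On every day *Inha*, *Inhbb* and *Amhr2* were lower in the cultures, whereas *Inhba* was higher. FPKM values of at least 1 in at least 3 libraries were tested with limma on log2(FPKM+1), a scale that understates changes of low values. This left 7 of the 8 genes, *Amh* being too low. On day 4, 3 were called higher and 3 lower (71.6% of the 11512 genes tested were called, 37.2% higher and 34.3% lower). On day 6 these were 4 and 3 (67% called, 35% higher and 32% lower), on day 8, 2 and 3 (63.2%, 32.6% higher and 30.5% lower), and on day 10, 2 and 3 (69.5%, 36.3% higher and 33.2% lower). The median log2 difference of the 7 genes was 0.10, 0.28, 0.25 and 0.18 on the 4 days, against 0.03, 0.03, 0.00 and 0.03 over all genes tested. The E12.5_GC replicates stood further apart than those of the V580 days. Chi-square per degree of freedom was 55.4, 62.6 and 110 between their pairs, against 1.78 to 11.2. Limma took a single spread per gene over all 15 libraries. The SE and p values against E12.5_GC may therefore understate the spread of that group.

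**Figure D2:**
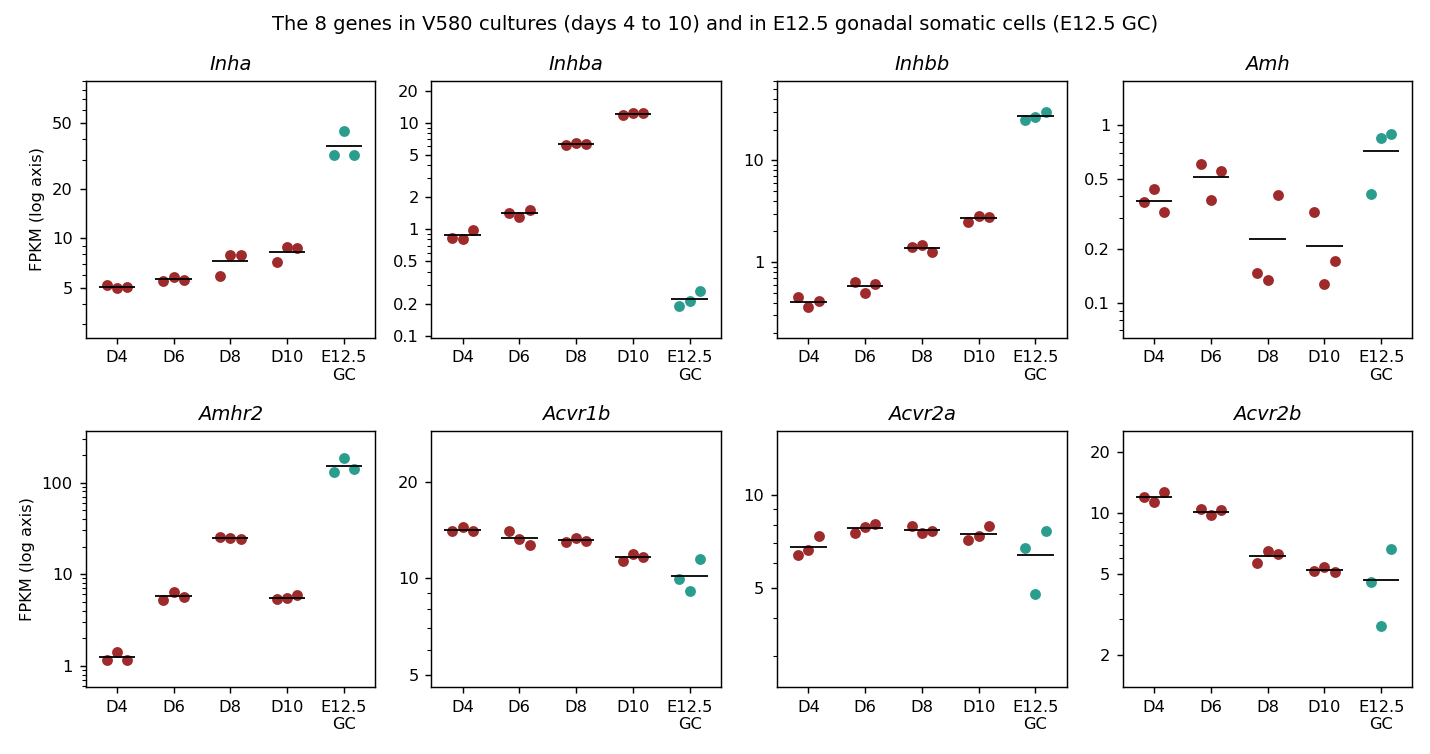
FPKM (log axes, each panel with its own scale) of the 8 genes in V580 cultures on days 4, 6, 8 and 10 (red) and in E12.5_GC (green). Each point is 1 of 3 libraries and each line the group mean. *Inhba* rose from 0.816 to 0.979 FPKM on day 4 to 11.8 to 12.3 on day 10, and *Amhr2* peaked on day 8 at 23.955 to 25.3 FPKM.

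*Inha* stood at 32.1, 45.1 and 32.1 FPKM in E12.5_GC and at 5.21, 4.99 and 5.03 on day 4, 5.50, 5.85 and 5.597 on day 6, 5.92, 7.97 and 7.95 on day 8 and 7.18, 8.84 and 8.79 on day 10. All culture libraries lay below all gonadal ones. Its FPKM was 7.17-fold lower on day 4 (log2 difference -2.60, SE 0.126, limma adjusted p = 9.15e-11) and 4.40-fold lower on day 10 (adjusted p = 2.44e-09). Between these days it rose 1.63-fold (0.60, adjusted p = 0.000713), in a contrast with 64.5% of genes called.

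*Inhbb* was the beta subunit of the gonadal cells, at 24.9, 26.8 and 30.2 FPKM, against 0.454, 0.361 and 0.412 on day 4, 0.639, 0.497 and 0.611 on day 6, 1.42, 1.46 and 1.26 on day 8 and 2.46, 2.83 and 2.77 on day 10. The groups did not overlap. It was 66.7-fold lower on day 4 (log2 difference -4.32, SE 0.0744, limma adjusted p = 1.98e-15) and 10.2-fold lower on day 10 (-2.94, adjusted p = 1.16e-13). Within the cultures *Inhbb* rose 2.37-fold from day 6 to day 8 (0.59, 41.1% of genes called) and 1.95-fold from day 8 to day 10 (0.63, 34.5% called).

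*Inhba* was at 0.192, 0.213 and 0.264 FPKM in E12.5_GC and at 0.832, 0.816 and 0.979 on day 4, 1.43, 1.29 and 1.51 on day 6, 6.13, 6.49 and 6.34 on day 8 and 11.8, 12.2 and 12.3 on day 10. Each day lay above the one before without overlap. The FPKM ratio to E12.5_GC went from 3.93 on day 4 (log2 difference 0.62, SE 0.0583, limma adjusted p = 2.03e-07) to 6.34 on day 6, 28.4 on day 8 and 54.2 on day 10 (3.42, adjusted p = 3.34e-15). Its step from day 6 to day 8 was 4.48-fold (1.60).

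In FPKM, *Inhbb* exceeded *Inhba* 130.2, 125.4 and 114.4 times in E12.5_GC, whereas *Inhba* exceeded *Inhbb* 1.83 to 2.38 times on day 4, 2.23 to 2.61 on day 6, 4.32 to 5.05 on day 8 and 4.31 to 4.79 on day 10. *Inha* was 1.06 to 1.67 times the sum of both beta subunits in E12.5_GC, 3.62 to 4.24 times on day 4, 2.63 to 3.27 on day 6, 0.784 to 1.05 on day 8 and 0.504 to 0.588 on day 10. The ratio of *Inhbb* to *Inhba* in the E12.5 libraries of the count table was 22.3 and 28.7 per kilobase. *Inha* was 8.796 and 9.03 times the sum of both beta subunits there. Those libraries were processed separately, and the cause of the differences from E12.5_GC was not tested.

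Markers of other cells moved with *Inhba* over the days. The 6 interstitial markers summed to 67.0 to 78.1 FPKM on day 4, 177 to 185 on day 6, 515 to 655 on day 8 and 1338 to 1652 on day 10, against 219 to 241 in E12.5_GC, with 6, 3, 0 and 0 of the 6 called lower and 0, 1, 5 and 5 higher than there. The top gene was *Col1a1*, with a mean of 782 FPKM on day 10. The part of fibroblast-like cells in the level of *Inhba* was not tested. The 6 granulosa markers went the way of *Inha*, *Inhbb* and *Amhr2*, at 655 to 843 FPKM in E12.5_GC and 64.1 to 123 on the 4 days, with all 6 called lower on each day. E12.5_GC also held red blood cell transcripts, at 1038 to 4435 FPKM for 3 erythroid genes against less than 1 in the cultures, and their part was not tested either. Of the 5 mesothelial markers, 3 were higher and 2 lower on day 4 and all 5 were higher on days 6, 8 and 10.

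*Amhr2* rose to day 8 and then fell. It stood at 129, 184 and 141 FPKM in E12.5_GC, 1.16, 1.43 and 1.17 on day 4, 5.25, 6.35 and 5.68 on day 6, 25.3, 24.5 and 23.955 on day 8 and 5.31, 5.43 and 5.87 on day 10. The day 8 libraries lay above all other culture libraries and below the gonadal ones. It was 121-fold lower than in E12.5_GC on day 4 (log2 difference -6.07, SE 0.106, limma adjusted p = 2.21e-15), 26.3-fold on day 6, 6.15-fold on day 8 (-2.56, adjusted p = 2.56e-11) and 27.4-fold on day 10 (-4.53). Between successive days it rose 4.6-fold (44.9% of genes called), rose 4.27-fold and then fell 4.45-fold (-1.97, adjusted p = 1.39e-08).

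*Amh* was barely detected in this table, at 0.409, 0.842 and 0.887 FPKM in E12.5_GC (19, 33 and 29 reads) and 0.127 to 0.604 on days 4 to 10 (5 to 23 reads per library). It was left out of the limma test by its low level. In an edgeR test of reads recovered from the FPKM values, *Amh* was lower than in E12.5_GC on day 8 (log2 -1.52, adjusted p = 0.00652) and day 10 (-1.75, adjusted p = 0.00292), with adjusted p = 0.0601 on day 4 and 0.329 on day 6.

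The mean FPKM of the activin receptors stood within 2.58-fold of E12.5_GC on each day. *Acvr2b* was at 4.56, 2.77 and 6.66 FPKM in E12.5_GC, 12.1, 11.3 and 12.8 on day 4, 10.4, 9.77 and 10.4 on day 6, 5.68, 6.53 and 6.31 on day 8 and 5.21, 5.45 and 5.12 on day 10. Days 4 and 6 lay above all gonadal libraries, and days 8 and 10 overlapped with them. It was 2.58-fold higher than in E12.5_GC on day 4 (log2 difference 1.26, SE 0.169, limma adjusted p = 8.91e-06) and 2.19-fold on day 6 (1.04, adjusted p = 7.43e-05), and differed by 0.40 on day 8 (adjusted p = 0.0526) and 0.20 on day 10 (adjusted p = 0.295). Without the third E12.5_GC library, the highest of the 3, both of the latter were called (0.65 and 0.45, adjusted p = 0.00016 and 0.00264). From day 4 to day 10 it fell 2.29-fold (-1.06, adjusted p = 6.98e-05).

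*Acvr1b* was at 9.92, 9.15 and 11.5 FPKM in E12.5_GC and at 14.1, 14.4 and 14.1 on day 4, 14.0, 13.3 and 12.7 on day 6, 12.96, 13.3 and 13.1 on day 8 and 11.4, 11.9 and 11.7 on day 10. It exceeded E12.5_GC by a log2 difference of 0.45 on day 4, a ratio of 1.39 (limma adjusted p = 3.2e-05), 0.36 on day 6 (adjusted p = 0.000271) and 0.34 on day 8 (adjusted p = 0.000508). On day 10 the difference was 0.18 (adjusted p = 0.0271), the libraries overlapped, and the call was lost on leaving out single libraries. *Acvr2a* lay between 6.37 and 8.07 FPKM on all days and at 6.75, 4.76 and 7.66 in E12.5_GC. By limma it was called on day 6 alone (0.28, adjusted p = 0.0394), with overlapping libraries, and that call was lost without the second E12.5_GC library or any day 6 library (adjusted p = 0.0582 to 0.177). The differences of *Acvr2a* on the other days were 0.10, 0.25 and 0.22 (adjusted p = 0.455, 0.0588 and 0.0942), and without the third E12.5_GC library those of days 8 and 10 were called (0.38 and 0.34).

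Of the 33 other pathway genes tested, 14 were higher and 14 lower on day 4 than in E12.5_GC, 16 and 8 on day 6, 17 and 8 on day 8 and 18 and 9 on day 10, where 71.6%, 67%, 63.2% and 69.5% of all genes tested were called. *Fst*, follistatin, which binds and neutralises activin, was at 50.01, 59.8 and 65.9 FPKM in E12.5_GC and at 1.84 to 3.12 in all culture libraries, 27.0-fold lower on day 4 (log2 difference -4.23, limma adjusted p = 1.32e-13) and 21.8-fold lower on day 10. The proprotein convertase *Pcsk6* was 7.16-fold lower on day 4. *Tdgf1* was at 4.42 to 5.15 FPKM on day 4 against at most 0.0325 in E12.5_GC, *Nog* was 16-fold higher on day 10 (3.14, adjusted p = 2.33e-12) and *Lefty1*, an inhibitor of nodal signalling, 11.6-fold higher. On day 6, *Eng*, a coreceptor of endothelial cells, was lower (-2.01, adjusted p = 9.6e-11).

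Likeness over all 31 FPKM libraries (log2(FPKM+1)) again gave a description only. *Inhba* was nearest to *Lox*, a collagen cross-linking enzyme (r = 0.9531), and *Tmco1* (0.9512), *Inhbb* to *Gas7* (0.9665) and *Acvrl1* (0.9543), *Amhr2* to *Tcf23* (0.9851) and *Clca3a1* (0.9777) and *Inha* to *Sat2* (0.9906) and *Zfp672* (0.9882). For the receptors of activin these were *Scd2* for *Acvr1b* (0.9792), *Fbn2* and *Kmt2e* for *Acvr2a* (0.9815 and 0.9813) and *Cmtm4* and *Pkn2* for *Acvr2b* (0.9501 and 0.9235). *Amh* reached 0.8265 with *Agap3* and 0.8076 with *E130308A19Rik*.

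The third comparison asked what each compound alone and both together did within 48 h. It compared Vc, AM580 and V580 with Con at the same time, and V580 with AM580. *Inha* (0.0314 to 0.594 FPKM) and *Amh* (0.0268 to 0.348 FPKM, 1 to 11 reads) were too low to test, which left 6 of the 8 genes among 10644. For *Inhba* the differences between compounds and Con were small beside that between the time points.

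**Figure D3:**
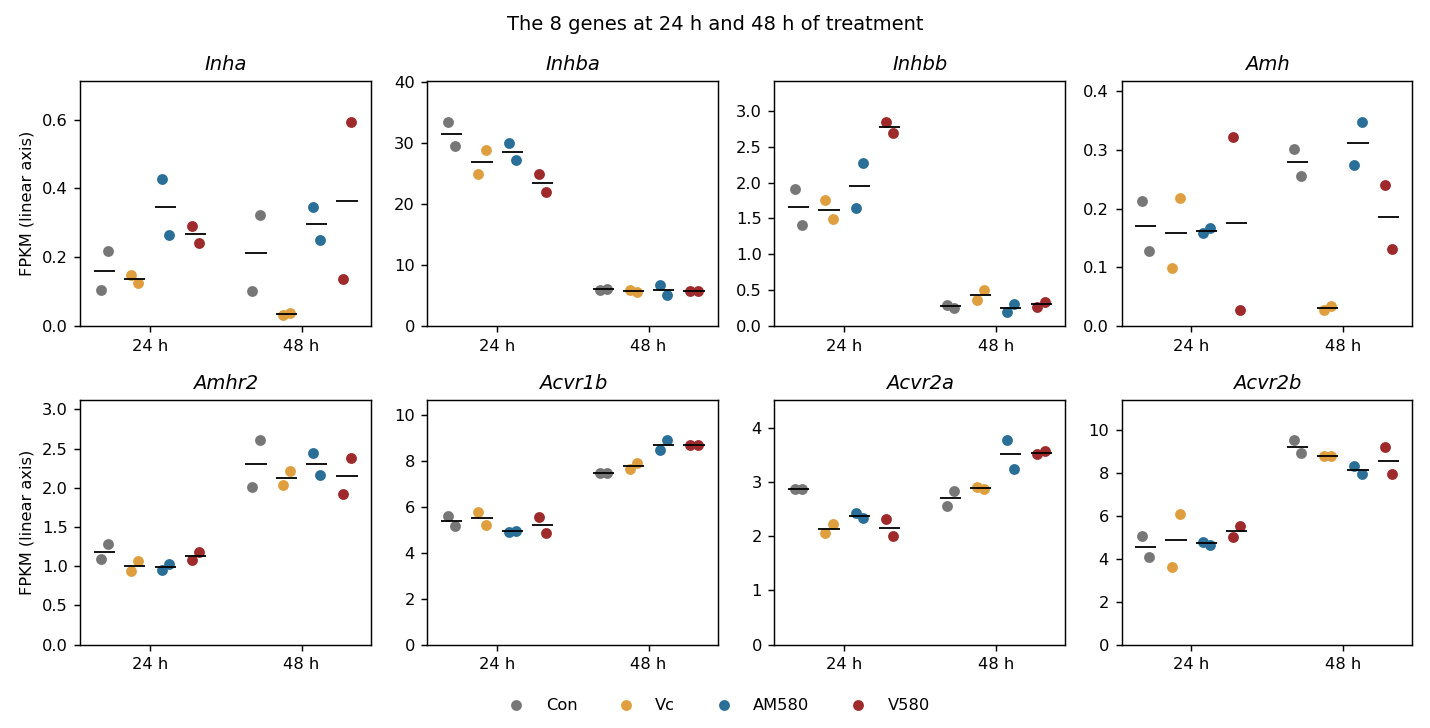
FPKM (linear axes from 0) of the 8 genes at 24 h and 48 h in Con (grey), Vc (yellow), AM580 (blue) and V580 (red). Each point is 1 of 2 libraries and each line the mean. *Inhba* stood between 22.0 and 33.4 FPKM in all 24 h libraries and between 5.13 and 6.64 in all 48 h libraries.

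In Con cultures, 5 of the 6 genes changed between 24 h and 48 h (66% of all genes were called). *Inhba* went from 33.4 and 29.4 FPKM to 5.90 and 6.06, a 5.25-fold fall (log2 difference -2.21, SE 0.0962, limma adjusted p = 4.31e-11), and *Inhbb* from 1.91 and 1.40 to 0.296 and 0.257, a 6.0-fold fall (-1.05, adjusted p = 5.81e-07). Receptors rose, *Acvr2b* from 5.08 and 4.06 to 9.52 and 8.94 (2.02-fold, adjusted p = 6.59e-05), *Amhr2* from 1.09 and 1.28 to 2.01 and 2.61 (1.95-fold, adjusted p = 5.34e-05) and *Acvr1b* from 5.62 and 5.19 to 7.48 and 7.49 (1.39-fold, adjusted p = 5.04e-05). None of these groups overlapped. The interstitial markers fell over the same interval, from 90.3 to 99.99 FPKM at 24 h to 23.5 to 24.6 at 48 h in Con, *Col1a1* from a mean of 73.7 to 15.4, and their part in the level of *Inhba* was not tested.

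At 24 h, V580 moved 3 of the 6 genes (29% of all genes called). *Inhba* was at 24.8 and 22.0 FPKM in V580 against 33.4 and 29.4 in Con, 1.34-fold lower (log2 difference -0.41, SE 0.0962, limma adjusted p = 0.00511), with Vc at 25.0 and 28.7 and AM580 at 29.9 and 27.1. *Inhbb* was at 2.85 and 2.69 in V580 against 1.91 and 1.40 in Con, 1.67-fold higher (0.51, SE 0.107, adjusted p = 0.00237). It stood at 1.75 and 1.49 with Vc and 1.65 and 2.27 with AM580, so that V580 lay above every other library. *Acvr2a* was at 2.31 and 2.01 in V580, 2.06 and 2.22 in Vc and 2.43 and 2.34 in AM580, below the 2.88 and 2.87 of Con (-0.30, adjusted p = 0.00564 for V580 and 0.0113 for Vc). The calls of *Inhba* and *Acvr2a* in V580 were lost without the second V580 library (adjusted p = 0.0698 and 0.08), and that of *Inhba* also without the first Con library (0.0565). *Acvr2a* was the 1 gene of the 6 called for Vc (13.6% of all genes called), and its call was lost without either Con library or the first Vc library. For AM580, limma called 0 of the 6 genes at 24 h (14.8% of all genes called), with 1 at an unadjusted p below 0.05 (*Acvr2a*) and 0 called by edgeR on recovered reads.

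The difference between V580 and AM580, which differ by the addition of Vc, was tested directly. At 24 h *Inhbb* was 1.41-fold higher in V580 (log2 difference 0.36, SE 0.107, limma adjusted p = 0.0362), 1 of 6 genes called where 14.8% of all genes were. The call was lost with a pseudocount of 0.1 or 0.5 (adjusted p = 0.139 and 0.059) and without the first AM580 library or either V580 library. For *Inhba* the 95% interval of the difference was -0.48 to -0.07 and the adjusted p 0.0709. At 48 h limma called 0 of the 6 genes between V580 and AM580 (19.2% of all genes called), 0 had an unadjusted p below 0.05, and edgeR on recovered reads called 0. The 95% intervals there were -0.23 to 0.18 for *Inhba*, -0.17 to 0.29 for *Inhbb* and -0.24 to 0.37 for *Acvr2b*.

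At 48 h, AM580 and V580 each raised 2 receptors against Con. *Acvr2a* was at 3.77 and 3.25 FPKM in AM580 and 3.52 and 3.57 in V580, against 2.56 and 2.84 in Con and 2.91 and 2.87 in Vc (log2 differences 0.28 and 0.30, limma adjusted p = 0.00321 and 0.00235). *Acvr1b* was at 8.51 and 8.91 in AM580 and 8.72 and 8.71 in V580, against 7.48 and 7.49 in Con (0.19 and 0.20, adjusted p = 0.0174 and 0.0169). The compound libraries lay above the Con libraries without overlap, but the percentages of all genes called were 57 and 57.1. The calls of *Acvr1b* were lost when single libraries were left out (adjusted p = 0.0629 to 0.103), and that of *Acvr2a* for AM580 without its first library (0.055). Both comparisons share the Con libraries. For Vc, limma called 0 of 6 genes at 48 h (12.4% of all genes called) with 0 at an unadjusted p below 0.05. On recovered reads edgeR called *Amh* (log2 -3.02, adjusted p = 0.043), from 10 and 9 reads in Con and 1 and 1 in Vc. The effect of AM580 differed between 24 h and 48 h for 2 of the 6 genes, *Acvr1b* and *Acvr2a* (35% of all genes called), and that of V580 for *Inhbb* and *Acvr2a* (33.9%). For Vc this interaction was called for 0 of the 6 by limma (2.9% of all genes called), with *Acvr2a* at an unadjusted p below 0.05 and called by edgeR on recovered reads (adjusted p = 0.0438).

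Of 30 other genes of the pathway tested, 14 were higher and 5 lower at 48 h in AM580 than in Con, 11 and 7 in V580, and 0 and 4 in Vc, where 57%, 57.1% and 12.4% of all genes were called. At 24 h these counts were 7 and 3, 4 and 7, and 0 and 6, against 14.8%, 29% and 13.6% of all genes. *Lefty1* stood at 492 and 507 FPKM with AM580 at 48 h, 344 and 357 with V580 and 99.9 and 96.2 in Con (log2 differences 2.34 and 1.83, limma adjusted p = 1.23e-14 and 1.47e-13). At 24 h it rose with AM580 (1.26) and fell with Vc (-1.14). *Fst* was at 0.577 and 0.668 FPKM with V580 at 48 h and 1.10 and 1.12 with AM580, against 4.31 and 5.04 in Con (-1.80 and -1.43). *Smad6*, an inhibitory Smad, rose with both (1.61 for AM580 and 1.52 for V580), and *Nog* was lower at 24 h with each compound (-0.77 for Vc, -0.77 for AM580 and -1.11 for V580). Between V580 and AM580, 0 of the 30 were higher and 7 lower at 48 h, and 2 higher and 8 lower at 24 h, *Lefty1* by -1.79 at 24 h (19.2% and 14.8% of all genes called).

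Single-cell counts of V580 day 6 gave the cells in which the transcripts were detected. There was 1 sample, so no test was made, and intervals cover counting error only. Of 15412 barcodes, all distinct, 15315 cells were kept, with a median of 9281 unique molecular identifiers (UMIs). *Acvr2b* was found in 45.5% of cells (95% interval, exact Clopper-Pearson, 44.7 to 46.3), at 87.7 CPM, here counts of UMIs over all UMIs of the cells. *Acvr2a* was found in 14.3% of cells (13.8 to 14.9), *Acvr1b* in 7.25% (6.84 to 7.67), *Inha* in 6.97% (6.57 to 7.38) and *Inhba* in 6.05% (5.67 to 6.44). *Amhr2* was found in 2.89% (2.63 to 3.17), *Inhbb* in 0.588% (0.473 to 0.722) and *Amh* in 0.124% (0.0747 to 0.194, 19 UMIs in all). Every cell thinned to 2000 UMIs (11515 cells, 3800 shallower ones left out) gave 16.3%, 3.27%, 1.74%, 1.45%, 2.12%, 0.634%, 0.130% and 0.0434% in the same order. The activin receptors ranked otherwise in the bulk V580_D6 libraries, with *Acvr1b* at 12.7 to 14.0 FPKM, *Acvr2b* at 9.77 to 10.4 and *Acvr2a* at 7.55 to 8.07. The cause of that difference was not tested, so the shares of cells do not rank these genes by level.

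*Inhba* was concentrated in few cells. The top 1% of cells held 51.6% of its 2300 UMIs, with up to 67 in 1 cell, against 24.02% of the 1203 UMIs of *Inha*. Clustering gave 12 groups, and cluster 3 (1513 cells, interstitial-like by its collagen genes, with *Col6a2*, *Col1a1* and *Vcan* leading) held 1729 of the *Inhba* UMIs, a level of 73.3 CPM, and 33.2% of its cells had at least 1. In the other clusters of at least 100 cells *Inhba* ranged from 1.41 to 17.1 CPM. After thinning, 10.2% of the cells of cluster 3 held a UMI. At a finer resolution of 1.0 the 2 highest clusters were at 69.1 (unnamed) and 62.4 CPM (interstitial-like). Doublets were not removed and may add to cells of high UMI count.

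**Figure D4:**
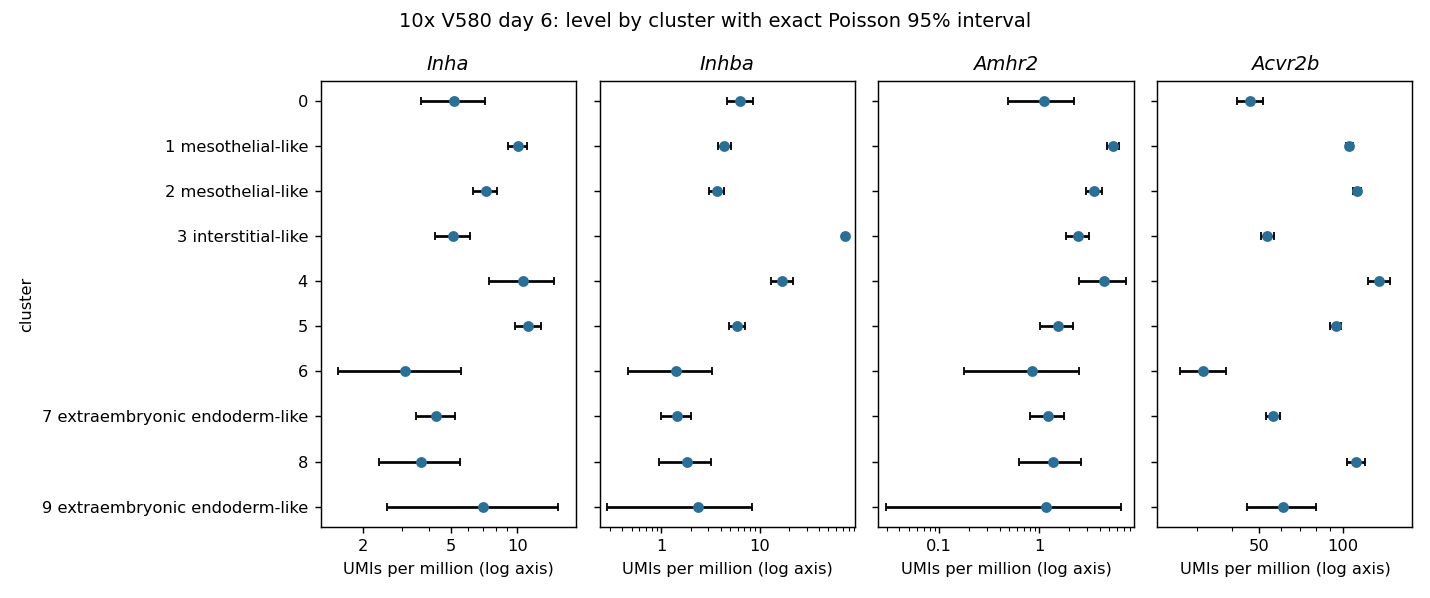
CPM of UMIs (log axes) of *Inha*, *Inhba*, *Amhr2* and *Acvr2b* in the 10 clusters of at least 100 cells of V580 day 6, with exact Poisson 95% intervals for counting error. Clusters without a name did not meet all the rules for naming, and the interval of *Inhba* in cluster 3 (from 69.9) is narrower than its point.

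*Inha* was spread more evenly, from 3.11 to 11.2 CPM over the same clusters, highest in cluster 5 (1052 cells led by the epithelial genes *Wfdc2*, *Cldn3* and *Epcam*, unnamed), then in the unnamed cluster 4 (10.6, with 1355 cells of low depth, a median of 2021 UMIs) and in the mesothelial-like cluster 1 (10.0). The leading genes of cluster 4 included *mt-Cytb*, *mt-Nd4* and other mitochondrial genes, and whether its cells were intact was not tested. *Amhr2* was highest in cluster 1 (3098 cells), at 5.50 CPM from 218 UMIs, followed by 4.41 in cluster 4, and stood at 2.42 in cluster 3 and 1.21 in the extraembryonic endoderm-like cluster 7. *Acvr2b* was found in each of these clusters, at 31.7 to 134 CPM. In the neuron-like cluster 10 (76 cells, median 9582 UMIs), *Inha* was in 5.26% of cells (1.45 to 12.9) and *Amhr2* in 1.32%. Shares of this size in other clusters or over all cells cannot be told from free RNA. *Inhba* was in 0 of these 76 cells, which allows a share of up to 4.74%. *Fst* was highest in the extraembryonic endoderm-like clusters 7 and 9, at 299 and 520 CPM.

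Few cells held more than 1 of the ligand subunits. *Inha* and *Inhba* were found together in 103 cells. *Inhba* was in 9.65% of the cells with *Inha*, against 6.05% of all cells, and *Inha* in 11.1% of those with *Inhba*, against 6.97%. *Inha* and *Inhbb* shared 12 cells, 13.3% of those with *Inhbb*, and both beta subunits shared 11, 12.2% of those with *Inhbb*. *Amh* was found in only 19 cells, and 0 of them held *Amhr2*, which was in 2.89% of all cells. Of the cells with *Acvr1b*, 69.6% also held *Acvr2b*, and of those with *Acvr2a*, 72.2% did, against 45.5% of all cells. Deeper cells hold more of any gene, and these shares were not corrected for it. Among the other pathway genes the most abundant were *Smad7*, *Smad4* and *Bmpr1a*, at 103, 89.6 and 79.4 CPM, while *Inhbc*, *Gdf1*, *Bmp15* and *Mstn* had 0 UMIs.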

How the data were processed

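Tables of gene counts (stages), FPKM values (V580 days and 24 h and 48 h treatments) and 10x UMI counts (V580 day 6) were used as the authors deposited them. Per the labels, Trim Galore, FastQC, HISAT2, SAMtools, featureCounts, RSEM and mm10 were named in the submitters' processing notes without versions. Libraries were poly(A) selected, and the strand used in counting is not given in the sources used here. Counts were raw reads per gene, and the FPKM values that the authors deposited were scaled to library depth and gene length. The columns of the treatments were matched to samples by name, and 10 columns of values matched no sample and were not used. Tables were normalised separately, and tests were made within a table.

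The members and the gene lists were chosen with earlier results of these data known. Stage counts were tested with edgeR 4.0.16 (quasi-likelihood, TMM, filterByExpr, all 4 stages in 1 fit). FPKM values were tested with limma 3.58.1 (trend) on log2(FPKM+1), after a filter of FPKM of at least 1 in 3 libraries (days) or 2 libraries (24 h and 48 h). P values were adjusted over all genes tested (Benjamini-Hochberg), and 0.05 was the threshold. FPKM ratios are ratios of group means. Exon lengths (GENCODE vM21) gave CPM per kilobase and the read steps of the FPKM values. Of values under 200 reads, 96.88 to 97.28% were whole within 0.1 reads, and the recovered reads were tested with edgeR as an alternative chosen after seeing the data, on 12986 and 12546 genes. Its calls are given in the closing section. Named were the 8 members in every table, the called pathway genes with the largest log2 change (up to 3 per contrast), and the genes nearest by correlation (up to 3 in the stages and 2 in the FPKM table, some of which are not reported here).

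Cells of the 10x table, made with Cell Ranger, were kept with 200 or more genes and a mitochondrial share of 40% or less. Scanpy 1.11.5 clustered them (genes in at least 3 cells, 2000 variable genes, 20 components, 20 neighbours, Leiden resolution 0.5). Clusters were named from markers with a score of at least 0.5 and at least 3 markers in 10% of cells. No name was given where another type had more markers among the leading genes of the cluster. The same held for clusters of low depth with no marker of their type among those genes. No doublet caller was run. All intervals on UMIs are exact and cover counting error only. The alternatives were other size factors, DESeq2 1.42.0, no low-value filter, fits of only 2 stages, a gene length term, other pseudocounts, median scaling, a replicate block, a 2-fold minimum, leaving out each library, and other limits on cells. Scripts were tested on simulated data. R 4.3.3 and Python 3.11.15 were used.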

Additional observations from a re-analysis of the deposited data

Results flagged for a closer look

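For 4 results the effect of a compound against Con differed between 48 h and 24 h by a test of the difference itself (limma interaction on log2(FPKM+1), 2 libraries per group). The AM580 effect on *Acvr2a* was higher by 0.48 at 48 h than at 24 h (SE 0.1, adjusted p = 0.00194), and the V580 effect on *Acvr2a* by 0.59 (SE 0.1, adjusted p = 0.000398). Leaving out single libraries gave 0.40 to 0.56 and 0.53 to 0.66. The AM580 effect on *Acvr1b* was higher by 0.30 at 48 h (SE 0.0898, adjusted p = 0.0177), with 0.25 to 0.35 on leaving out single libraries, and the call was lost without the first Con library at 24 h or the second AM580 library at 48 h (adjusted p = 0.0671 and 0.0612). The V580 effect on *Inhbb* was lower at 48 h, with a difference of -0.48 (SE 0.151, adjusted p = 0.0234). That call was lost by edgeR on recovered reads (adjusted p = 0.293) and in 4 of the left-out fits, which ranged from -0.62 to -0.34. The Con libraries are shared by these comparisons.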

How the results depend on the processing

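Over the stages, counts of called genes stayed within 1.5 times in 39 of 42 alternatives and 23 of 24 left-out fits. From E12.5 to E13.5 a 2-fold minimum left 4 of 7 calls. From E13.5 to E16.5 the length term and the 2-fold minimum each left 3 of 5, and left-out fits gave 3 to 5 (3 without the second E13.5 library). Values not called in the main test changed sign in 8 cases, and the cause was not tested. With the length term *Inhba* at E13.5 was 0.15 and *Amhr2* at E16.5 -0.025. In left-out fits against E12.5, *Inhba* at E13.5 ranged from -0.30 to 0.038 (without the second and the first E12.5 library). At E16.5, *Inha* ranged from -0.027 (without the second E16.5 library) to 0.89, *Amhr2* from -0.18 to 0.30 and *Acvr2a* from -0.18 to 0.47. *Acvr2a* on day 4 ranged from -0.073 to 0.22 and *Acvr2b* on day 10 from -0.060 to 0.45, both between the fits without the second and the third E12.5_GC library.

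Over the V580 days a 2-fold minimum left 4 of 7 calls between day 6 and E12.5_GC, 1 of 2 between days 6 and 4, 2 of 4 between days 8 and 6 and 1 of 3 between days 10 and 8. All other counts stayed within 1.5 times. At 24 h and 48 h a 2-fold minimum left 0 calls in every compound contrast and 2 of 5 between the times in Con. V580 against AM580 at 24 h (1 call) gave 0 with a pseudocount of 0.1 or 0.5 or no filter, 2 with median scaling and 2 by edgeR on recovered reads, and 0 to 1 in left-out fits. That edgeR test gave 1 call for Vc at 48 h and 1 for the Vc effect between times, where limma gave 0. A pseudocount of 0.1 left 1 of 2 calls for the V580 effect between times. Left-out fits gave 0 to 1 of 1 for Vc at 24 h (0 without either Con library), 1 to 3 of 3 for V580 at 24 h (1 without the second V580 library), 1 to 1 of 2 for AM580 and for V580 at 48 h, 1 to 2 of 2 for the AM580 effect (1 without the first Con library at 24 h or the second AM580 library at 48 h) and 1 to 3 of 2 for the V580 effect (1 without the first Con or first V580 library at 48 h).

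Replicate numbers did not pair the libraries (same-number correlations -0.0575 to 0.101 in the stages, -0.431 to 0.386 in the days and -0.424 to 0.209 at 24 h and 48 h). With the replicate block the stage counts were 7, 5, 6, 5, 5 and 5, as without it. The day counts were 6, 7, 7, 5, 2, 5, 3 and 6, which moved day 8 against E12.5_GC from 5 to 7 and day 8 against day 6 from 4 to 5. Those at 24 h and 48 h were 1, 0, 3, 1, 0, 2, 2, 0, 5, 0, 2 and 3, where the V580 effect moved from 2 to 3. In the 10x sample, a limit of 10% mitochondrial counts gave *Inhba* in 6.316% of cells, at least 1000 genes 7.624%, and leaving out the deepest 5% of cells 5.739%. *Amh*, at 1 to 33 recovered reads per FPKM library, lay under the level tested there.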
